A study of Mus musculus with 9 samples.

Results

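The 41 genes described here act at the G1/S transition and in DNA replication. They were taken by symbol, as a list, from the 37411 genes of the count table deposited for GT1-7-OX1 cells, and all 41 were found. GT1-7 is a mouse hypothalamic neuronal line of the gonadotropin-releasing hormone (GnRH) lineage, made with the SV40 T antigen under the GnRH promoter. All cells also carried the human OX1 orexin receptor, brought in by lentivirus with GFP, and the transduced cells with the strongest GFP were expanded, so each group holds this 1 line. The 3 groups had 3 cultures each: vehicle (water) for 8 h, 200 nM orexin-A (OxA) for 3 h and 200 nM OxA for 8 h, each added in fresh medium to near-confluent flasks. Vehicle was collected at 8 h only, so for the 3 h group the effect of OxA and the shorter time since the medium change cannot be told apart. Per the study's methods, the work up to purified RNA was run anew for each replicate, so p-values measure the spread between such runs of this line.

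Before S phase, ORC, CDC6 and CDT1 load the MCM2-7 helicase onto origins, which is called licensing. CDC45 and GINS then turn the helicase on, and the polymerases, the PCNA clamp and its RFC loader copy the DNA, with nucleotides supplied by ribonucleotide reductase, TYMS and TK1. Many of these genes are targets of E2F transcription factors, which are held by the retinoblastoma family until cyclin E and CDK2 act. SV40 T antigen, which all of these cells carry, binds the retinoblastoma family.

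The 9 libraries held between 16217786 and 20445364 counts, of which the 41 genes took 0.505% to 0.563%. All 19 neuronal marker genes were at 2 TPM (a level scaled for transcript length and depth) or more in every group, and their summed level was 418 to 447 TPM in vehicle, 473 to 505 TPM at 3 h and 576 to 603 TPM at 8 h. Of the 9 glial and vascular markers, 0 reached 2 TPM in vehicle and 1 did at 3 h and at 8 h, with sums between 3.46 and 5.56 TPM. The neuronal sum moved with the groups through 1 gene, *Vgf*, which encodes a secreted neuronal peptide precursor (means of 26.1, 91.9 and 200.8 TPM in vehicle, at 3 h and at 8 h; singled out after its values were seen). Without it the other 18 markers summed to 393 to 423 TPM in vehicle, 393 to 395 TPM at 3 h and 382 to 394 TPM at 8 h. The 3 h culture of replicate 1 had the highest value of its group for 29 of the 41 genes. Over all genes that passed a filter on low counts, replicate 1 was farthest from the others in both OxA groups. The chi-square per degree of freedom between its counts and theirs was 4.57 and 4.46 at 3 h and 4.88 and 5.20 at 8 h. Between the other cultures it was 1.93 at 3 h and 2.57 at 8 h, and vehicle pairs had 2.83 to 3.59. In bulk RNA, fewer cells of a type and less RNA per cell cannot be told apart.

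All 41 genes were expressed, over a wide range of levels per transcript length. In vehicle, *Pcna*, the sliding clamp, was highest at 416 ± 29.5 TPM (SD, n = 3). The median gene was *Rfc4*, a clamp loader subunit, at 84.5 ± 1.29 TPM. At the low end were *Fen1*, the nuclease that trims Okazaki fragments, at 2.13 ± 0.108 TPM and *E2f2* at 7.33 ± 0.561 TPM. In all, 17 genes were over 100 TPM and 3, among them *Orc1*, were under 10 TPM. Subunits of 1 complex differed in level too: the 6 MCM2-7 genes lay within 1.63-fold of each other (*Mcm3* 125 TPM, *Mcm4* 203 TPM), whereas the 4 GINS genes spanned 3.70-fold (*Gins2* 21.8 TPM, *Gins4* 80.9 TPM). The licensing factors that act on MCM2-7 were lower than it, with *Cdt1* at 90.8 ± 5.38 TPM, *Cdc6* at 19.9 ± 1.29 TPM and *Orc1* at 9.84 ± 0.822 TPM. For *Fen1*, *Gins2* and *Chaf1a*, 84.2%, 67.3% and 52.5% of the exon bases in GENCODE M21 overlap a gene on the opposite strand. The library kit marks strand, but how the counting used it is not given in the sources used here, so the values of these 3 genes are uncertain.

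**Figure D1:**
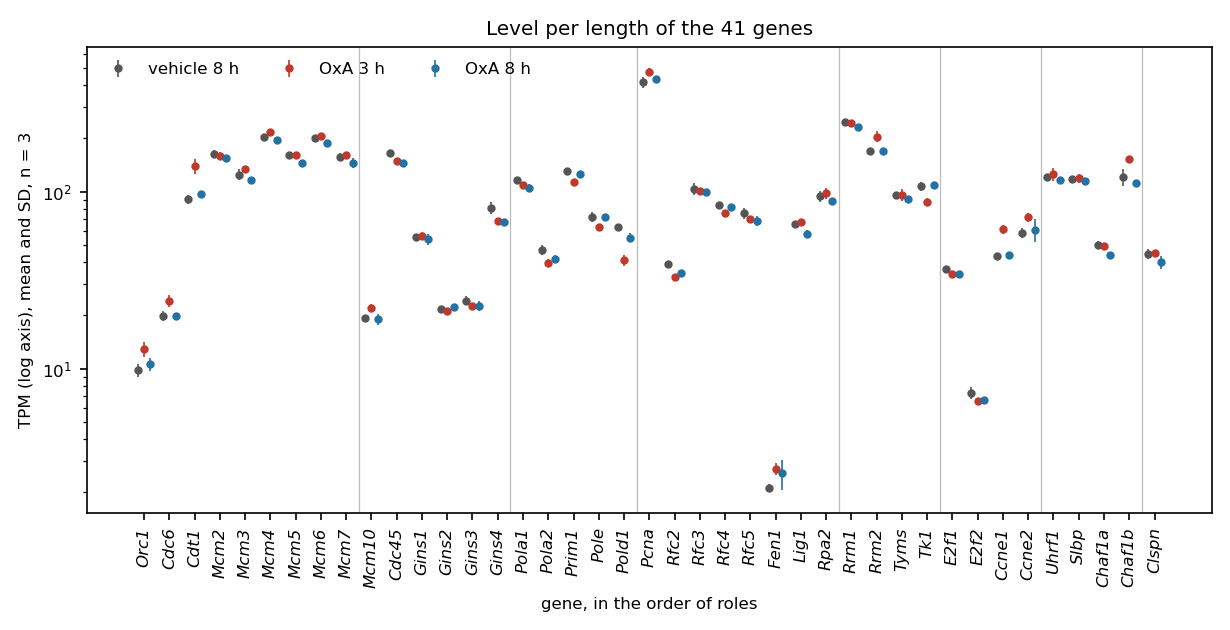
Mean TPM (log axis) and SD of each gene in vehicle (grey), OxA 3 h (red) and OxA 8 h (blue), n = 3 cultures, in the order licensing, helicase activation, polymerases, clamp and lagging strand, nucleotide supply, G1/S transcription, chromatin, checkpoint; grey lines part the roles. *Pcna* is highest and *Fen1* lowest in each group.

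The promoters of these genes often held a word bound by E2F. The words TTTCCCGC, TTTGGCGC, TTTCGCGC and TTTGCCGC were searched on both strands in RefSeq windows (GRCm38.p6) from 250 bases before to 50 after a start. A window was matched for 34 of the 41 genes, all but *Gins1*, *Gins2*, *Gins4*, *Mcm4*, *Pole*, *Rfc2* and *Ccne2*. Of the 34 genes, 15 held at least 1 word, or 15 of their 40 windows (37.5%), against 2.26% of all 32851 windows and 3.80% of those of genes that passed the filter on low counts. A match is a description of letters, not a shown site. The sequences below belong to licensing genes that were higher at 3 h and to *Pold1*, which had the largest fall, so that both directions can be read. *Orc1* and *Mcm6* are given as the 250 bases before the start, and the other genes as the word with up to 10 bases on each side, all 5′ to 3′ in the direction of the gene. Capitals mark the E2F words, read on either strand. In *Mcm6*, 2 words overlap in 1 run of capitals and another word lies nearer the start.
Orc1, chr4:108579204-108579453, plus strand: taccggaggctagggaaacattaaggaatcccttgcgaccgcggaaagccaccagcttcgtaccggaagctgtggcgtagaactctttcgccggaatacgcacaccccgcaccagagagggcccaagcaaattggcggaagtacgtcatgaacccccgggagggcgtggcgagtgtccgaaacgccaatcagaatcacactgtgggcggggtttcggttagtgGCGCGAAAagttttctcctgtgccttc
Mcm6, chr1:128359706-128359955, minus strand: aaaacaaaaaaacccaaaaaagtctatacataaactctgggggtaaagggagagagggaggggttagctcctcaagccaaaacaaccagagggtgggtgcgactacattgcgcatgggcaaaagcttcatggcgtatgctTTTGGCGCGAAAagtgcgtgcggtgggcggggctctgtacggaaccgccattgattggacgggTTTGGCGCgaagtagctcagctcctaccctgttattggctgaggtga
Cdt1, chr8:122568037-122568064, plus strand: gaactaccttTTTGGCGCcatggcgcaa
Cdc6, chr11:98908003-98908030, plus strand: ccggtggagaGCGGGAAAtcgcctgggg
Mcm3, chr1:20820276-20820303, minus strand: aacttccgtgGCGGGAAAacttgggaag
Mcm3, chr1:20820263-20820284, minus strand: cttgggaagtTTTGGCGCcaag
Mcm7, chr5:138172031-138172058, minus strand: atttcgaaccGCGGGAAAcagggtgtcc
Mcm7, chr5:138171850-138171877, minus strand: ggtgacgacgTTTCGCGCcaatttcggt
Pold1, chr7:44548766-44548786, minus strand: gtatcttgtgGCGGGAAAagc

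The word of *Orc1* begins 27 bases before the start, and that of *Cdc6* 138 bases before it. The words of *Cdt1* and *Pold1* begin 32 and 39 bases after the start. By the 3 h calls given next, a word was found in 6 of the 11 matched genes that rose, in 1 of the 4 that fell and in 8 of the 19 that were not called. The rises thus included genes with a word and genes without one in the window, such as *Ccne1* and *Chaf1b*. Other words were read the same way, as shares of the 40 windows, of all windows and of the windows of genes that passed the filter. CCAAT lay in 24 of the 40, against 37.4% of all windows and 37.4% of those of genes kept. GGGCGG, a word of SP and KLF factors, lay in 70.0%, against 35.7% and 60.9%. CACGTG, the E-box, lay in 12.5%, against 7.15% and 9.52%. TTTGAA, the core of the cell cycle homology region, lay in 12.5%, against 17.9% and 12.1%.

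The 3 h comparison asked which of these genes differed after OxA from vehicle. Of the 9 licensing genes of the list, 7 were higher after 3 h of OxA, led by *Cdt1* (61.9% higher), *Orc1* (38.2%) and *Cdc6* (27.8%), and both cyclin E genes were higher with them. Of its 5 polymerase and primase genes 4 were lower, led by *Pold1* (31.3% lower). In edgeR's quasi-likelihood test over 15352 genes with Benjamini-Hochberg adjustment, 13 of the 41 rose and 7 fell, or 31.7% and 17.1%. Of all genes tested, 20.2% were higher and 18.7% lower, so the share that rose was above the background and the share that fell was near it. The median SE was 0.055 for the 41 genes and 0.090 for all genes, so a change of a given size was called more readily among the 41. The other lists set beside all genes below also had a smaller median SE than all genes. The median log2 fold change (log2FC) of the 41 genes was 0.09, against -0.004 for all genes. With total counts as the only scaling it was -0.01 against -0.10, and 9 of the 41 genes were higher and 11 lower. Over all genes that scaling gave 2141 higher and 4333 lower. The changes of the 41 genes were small, with a median absolute log2FC of 0.13. That of all genes was 0.20, but scatter adds to such a median and their SE was larger, so these are not like for like.

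**Figure D2:**
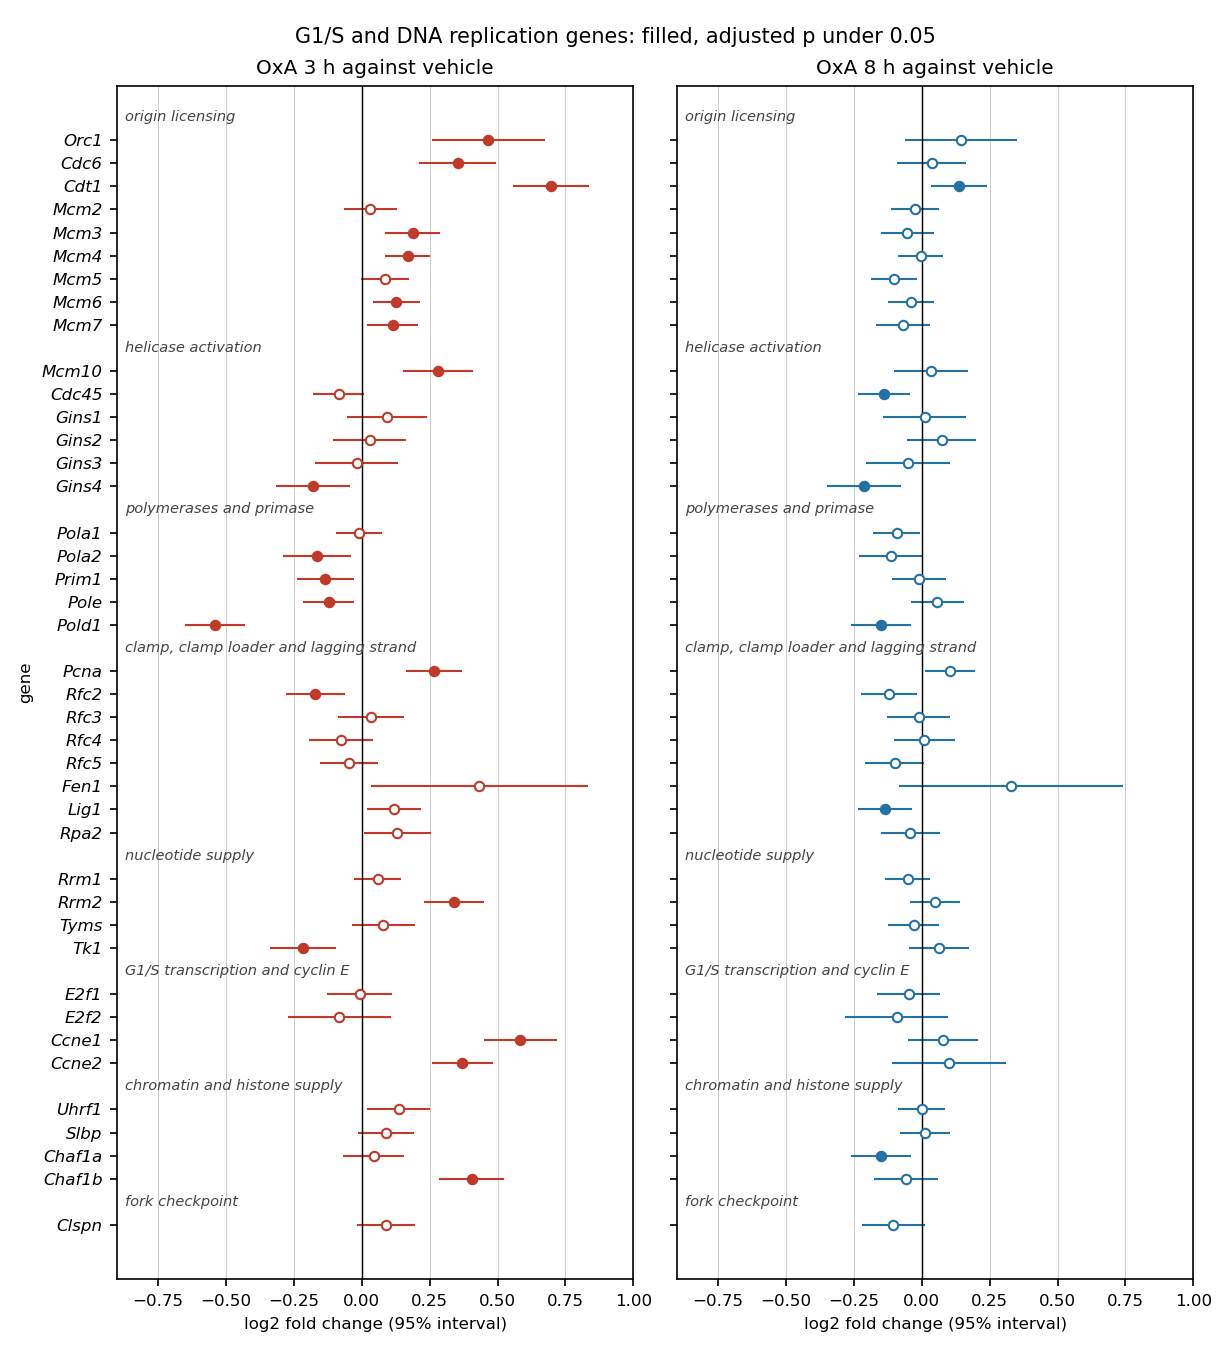
The log2FC of each of the 41 genes, with its 95% interval, for OxA 3 h (left, red) and OxA 8 h (right, blue) against vehicle, n = 3 cultures per group and grouped by role. Filled points have an adjusted p under 0.05; 20 are filled at 3 h and 6 at 8 h.

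Among the licensing genes, *Cdt1*, which brings MCM2-7 to the origin, was at 86.6, 92.5 and 85.7 CPM (counts relative to the scaled library size) in the vehicle cultures, 159, 142 and 126 CPM at 3 h and 97.2, 94.9 and 100.2 CPM at 8 h. Its 3 h values lay above all others, and the rise was the largest of the 41 (log2FC 0.70 ± 0.07, adjusted p = 2.15e-07; ± beside a log2FC is its SE). *Orc1*, the largest subunit of the origin recognition complex, went from 14.3, 11.7 and 13.6 CPM to 17.4, 20.3 and 16.9 CPM (log2FC 0.47 ± 0.10, adjusted p = 0.000645). *Cdc6*, the ATPase that loads the helicase with ORC, went from 39.9, 43.2 and 43.9 CPM to 59.4, 53.2 and 49.5 CPM (log2FC 0.35 ± 0.07, adjusted p = 0.00021). For both genes the 3 h and vehicle cultures did not overlap. Here and below, non-overlap in a called gene describes the values and is no support apart from the call.

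The 6 helicase genes had smaller log2FC than *Cdt1*, *Orc1* and *Cdc6*. Among MCM2-7, *Mcm3* (0.19), *Mcm4* (0.17), *Mcm6* (0.13) and *Mcm7* (0.11) rose on the log2 scale, whereas *Mcm2* (log2FC 0.03, 95% interval -0.07 to 0.13) and *Mcm5* (log2FC 0.09, adjusted p = 0.112) were not called. *Mcm4*, the highest of the 6 in TPM, was at 318, 332 and 322 CPM in vehicle and 365, 367 and 357 CPM at 3 h (log2FC 0.17 ± 0.04, adjusted p = 0.00195). The calls of these 4 genes were lost with total counts as the only scaling, and that of *Mcm7* was near the threshold (adjusted p = 0.0484).

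Of the 6 helicase activation genes, 1 rose and 1 fell (16.7% each), against 20.2% and 18.7% of all genes. *Mcm10*, which helps to start the loaded helicase, was at 43.0, 43.2 and 40.8 CPM in vehicle and 54.8, 49.5 and 49.5 CPM at 3 h (log2FC 0.28 ± 0.06, adjusted p = 0.000891). *Gins4*, a GINS subunit, was at 53.4, 48.6 and 44.9 CPM in vehicle and 43.6, 43.0 and 42.9 CPM at 3 h, with every 3 h value below every vehicle value (log2FC -0.18 ± 0.07, adjusted p = 0.0341). *Cdc45*, the highest of this role in TPM, was at 160.4, 160.3 and 153 CPM and 156, 143 and 147 CPM, and the groups overlapped (log2FC -0.09 ± 0.05, adjusted p = 0.154). The other 3 GINS genes had log2FC from -0.02 (*Gins3*) to 0.09 (*Gins1*) and were not called.

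All 5 polymerase and primase genes of the list had a log2FC below 0 and 4 of them fell (80%, against 18.7% of all genes). Of 7 further subunits outside the list, given below, 0 fell and 1 rose. *Pold1*, the catalytic subunit of polymerase delta, was at 96.7, 96.2 and 96.9 CPM in vehicle, 61.7, 68.5 and 68.3 CPM at 3 h and 93.7, 80.9 and 87.7 CPM at 8 h. The vehicle cultures were close together and the 3 h cultures far below them (log2FC -0.54 ± 0.05, adjusted p = 1.81e-08). *Pola2*, the accessory subunit of polymerase alpha, went from 57.6, 62.6 and 58.2 CPM to 56.9, 52.3 and 49.8 CPM (log2FC -0.16 ± 0.06, adjusted p = 0.0362). *Prim1*, the primase that starts each Okazaki fragment and the highest of this role in TPM, went from 95.8, 91.1 and 91.0 CPM to 89.2, 83.2 and 80.4 CPM (log2FC -0.13 ± 0.05, adjusted p = 0.0415). Neither gene's 3 h values reached its vehicle values, by a narrow margin in both. *Pole*, the leading-strand polymerase, also fell (-0.12), and *Pola1*, the catalytic subunit of polymerase alpha, was not called (log2FC -0.01, 95% interval -0.09 to 0.08). The calls of *Pola2*, *Prim1* and *Pole* were lost by DESeq2 and without vehicle replicate 2, 3 h replicate 2 or 3 h replicate 3, and that of *Pold1* in none of these.

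The clamp rose, and of its loader 1 gene fell. *Pcna* was at 284, 295 and 262 CPM in vehicle and 359, 337 and 314 CPM at 3 h and rose (log2FC 0.27 ± 0.05, adjusted p = 0.000192). *Rfc2*, a loader subunit, was at 89.1, 87.5 and 83.2 CPM in vehicle and 80.7, 77.8 and 72.0 CPM at 3 h and fell (log2FC -0.17 ± 0.05, adjusted p = 0.0132). The groups stood apart in both genes. *Rfc3*, *Rfc4* and *Rfc5* had log2FC between -0.08 and 0.03 and were not called. On the lagging strand, *Fen1* was at 2.24, 2.37 and 2.25 CPM in vehicle and 3.32, 2.80 and 3.14 CPM at 3 h, higher in each culture, but few counts lay behind it (log2FC 0.43 ± 0.19, adjusted p = 0.0808). *Lig1*, the ligase that joins Okazaki fragments (log2FC 0.12, adjusted p = 0.0537), and *Rpa2*, of the single-strand binding complex (0.13, adjusted p = 0.0878), were not called.

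Nucleotide supply held 1 gene that rose and 1 that fell among 4 (25% each), against 20.2% and 18.7% of all genes. *Rrm2*, the regulated subunit of ribonucleotide reductase, was at 174, 161 and 163 CPM in vehicle and 231, 199.7 and 198 CPM at 3 h (log2FC 0.34 ± 0.05, adjusted p = 2.09e-05). *Rrm1*, its partner subunit, was at 452, 445 and 425 CPM and 479, 443 and 452 CPM, with overlapping groups and no call (log2FC 0.06, 95% interval -0.03 to 0.15). *Tk1*, the thymidine kinase of the salvage pathway, fell from 70.2, 71.3 and 64.4 CPM to 62.7, 56.0 and 58.0 CPM (log2FC -0.22 ± 0.06, adjusted p = 0.00469). *Tyms*, which makes thymidylate, was not called (log2FC 0.08, 95% interval -0.04 to 0.20).

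Among the G1/S regulators, the cyclin E genes rose while E2F genes of the list did not pass the test. *Ccne1*, cyclin E1, was at 39.0, 39.1 and 36.6 CPM in vehicle and 62.5, 55.7 and 53.6 CPM at 3 h (log2FC 0.58 ± 0.07, adjusted p = 1.39e-07). *Ccne2*, cyclin E2, was at 79.6, 80.5 and 88.9 CPM in vehicle and 102, 112 and 108 CPM at 3 h (log2FC 0.37 ± 0.05, adjusted p = 7.87e-06). Every 3 h culture was above every vehicle culture in both. The activator genes *E2f1* (log2FC -0.01, 95% interval -0.13 to 0.11) and *E2f2* (log2FC -0.08, 95% interval -0.27 to 0.11) were not called. Of the *Ccne2* exon bases, 17.4% overlap *Ints8* on the opposite strand.

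Of the chromatin genes, *Chaf1b* alone was called at 3 h. It encodes a subunit of CAF-1, which deposits histones behind the fork, and was at 100.2, 117 and 98.7 CPM in vehicle, 147, 136 and 134 CPM at 3 h and 103, 102 and 98.8 CPM at 8 h (log2FC 0.40 ± 0.06, adjusted p = 6.37e-06 at 3 h). Its partner *Chaf1a* was not called (log2FC 0.04, 95% interval -0.07 to 0.16). *Uhrf1*, which reads hemimethylated DNA (log2FC 0.14, adjusted p = 0.0568), and *Slbp*, which binds the stem-loop of histone mRNA (0.09, adjusted p = 0.162), were not called either. *Clspn*, the adaptor of the fork checkpoint, was at 105, 100.4 and 92.9 CPM in vehicle and 110.0, 104 and 104 CPM at 3 h, with overlapping groups (log2FC 0.09 ± 0.05, adjusted p = 0.176).

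**Figure D3:**
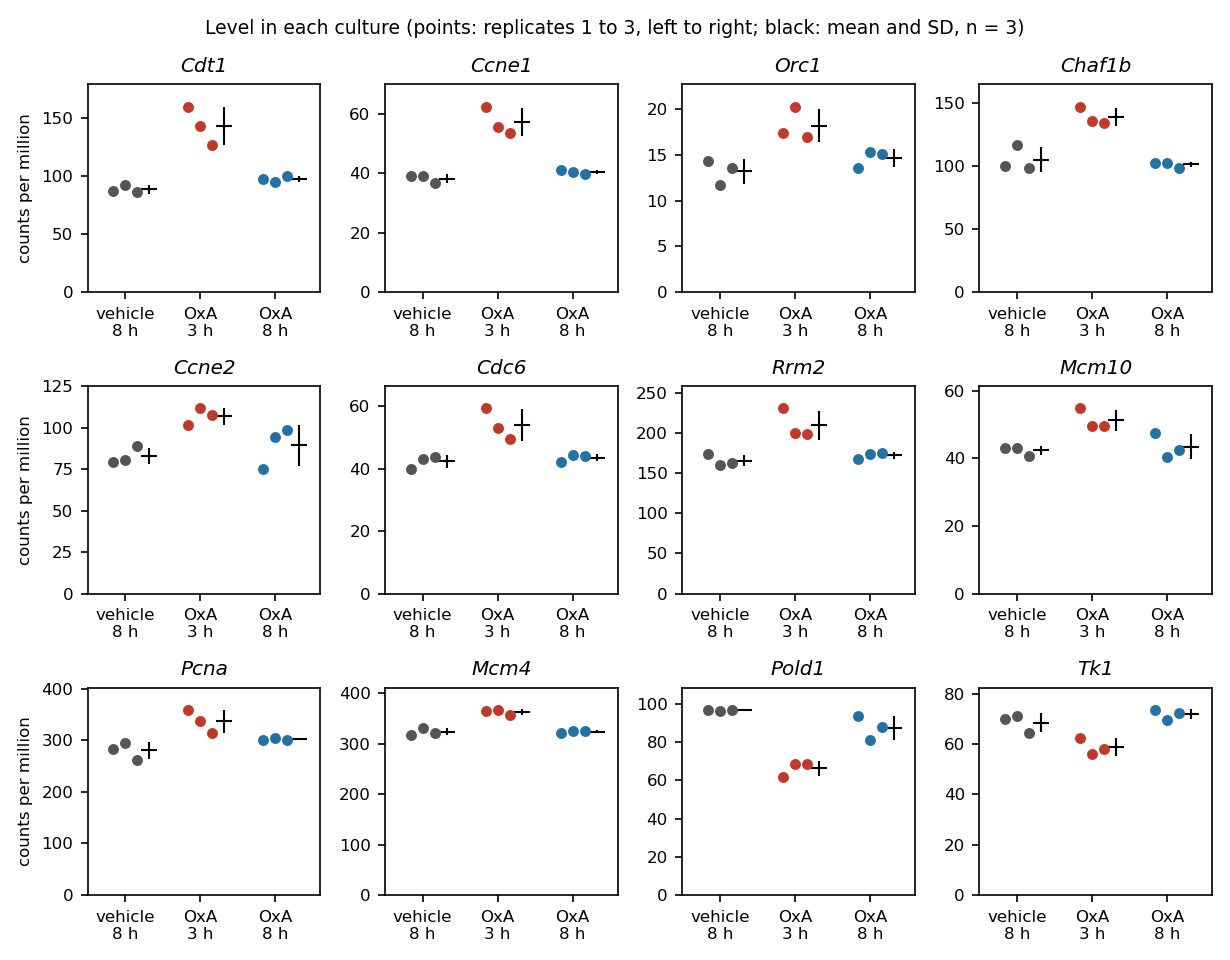
CPM (scaled by TMM, axes from 0) of 12 of the genes in each culture of vehicle (grey), OxA 3 h (red) and OxA 8 h (blue), with the mean and SD in black (n = 3). In the first 10 panels each 3 h culture lies above each vehicle culture, and in *Pold1* and *Tk1* below.

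In all 13 alternative settings 11 of the 20 calls at 3 h stood, 9 higher (*Cdt1*, *Ccne1*, *Orc1*, *Chaf1b*, *Ccne2*, *Cdc6*, *Rrm2*, *Mcm10* and *Pcna*) and 2 lower (*Pold1* and *Tk1*). The number that fell was 3 without vehicle replicate 1, vehicle replicate 2 or 3 h replicate 2 and by DESeq2, and 2 without 3 h replicate 3, and the median log2FC was 0.03 without 3 h replicate 1.

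The 8 h comparison had the same exposure time in both groups and shares its vehicle cultures with the 3 h comparison. After 8 h of OxA the 41 genes were close to vehicle: *Cdt1* was 9.94% higher, and 5 genes that act on the fork or behind it were 8.93% to 13.7% lower. Of the 41 genes, 1 rose and 5 fell, or 2.44% and 12.2%, against 15.3% higher and 13.1% lower among the 15407 genes tested. The share that rose was below the background, and the share that fell was near it. The median log2FC was -0.03, and -0.01 over all genes. With total counts as the only scaling 0 rose and 12 fell, and with upper-quartile scaling 0 and 8 (0 and 1 higher at an unadjusted p under 0.05). Over all genes, total counts gave 1744 higher and 3067 lower, and upper-quartile scaling 1994 and 2515.

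At 8 h *Cdt1*, in the values given above, still had each culture above each vehicle culture, but its log2FC was 0.14 ± 0.05 (adjusted p = 0.0411) where it had been 0.70 at 3 h. *Gins4* fell from 53.4, 48.6 and 44.9 CPM to 43.6, 41.6 and 42.0 CPM (log2FC -0.21 ± 0.07, adjusted p = 0.0159), and *Cdc45*, its partner in the active helicase, from 160.4, 160.3 and 153 CPM to 149.9, 143 and 138 CPM (log2FC -0.14 ± 0.05, adjusted p = 0.0251). *Pold1* remained below vehicle in each culture (log2FC -0.15 ± 0.05, adjusted p = 0.0396). *Lig1* was at 101, 106 and 99.6 CPM in vehicle and 90.4, 96.5 and 93.4 CPM at 8 h (log2FC -0.13 ± 0.05, adjusted p = 0.0384), and *Chaf1a* at 77.0, 74.7 and 69.4 CPM and 64.7, 69.1 and 66.4 CPM (log2FC -0.15 ± 0.05, adjusted p = 0.0402). These falls were small. The groups did not overlap in any of these genes, by a narrow margin in *Chaf1a* (69.1 CPM at 8 h, 69.4 CPM in vehicle). That adds no support, since the genes were picked by their calls in the same cultures. Leaving out *Fen1*, the 95% intervals of the 34 genes not called lay between -0.28 (*E2f2*) and 0.35 (*Orc1*) on the log2 scale. *Fen1* was at 3.06, 3.26 and 2.25 CPM at 8 h (log2FC 0.33, 95% interval -0.08 to 0.74).

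None of the 6 calls stood in all 13 alternative settings: without vehicle replicate 1, 0 genes were called by edgeR or by DESeq2, with 5 and 0 at an unadjusted p under 0.05. Without vehicle replicate 2, 2 rose and 1 fell; without 8 h replicate 2, 1 and 2; without 8 h replicate 3, 0 and 1; without vehicle replicate 3, 0 and 6; and by DESeq2, 0 and 2 (*Cdc45* and *Gins4*). With the replicate number as a block, 2 rose and 9 fell, among them all 6 genes called in the main test. At an unadjusted p under 0.05 edgeR gave 2 higher and 8 lower in full, 3 and 7 without 8 h replicate 3, and 1 and 9 without vehicle replicate 3.

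The 8 h and 3 h OxA groups were then compared with each other, a test of the difference between the levels at the 2 times that does not use vehicle. It also sets 2 times since the medium change side by side, and OxA and that time cannot be told apart. Of the 9 licensing genes of the list, 8 were lower at 8 h than at 3 h, as were both cyclin E genes, and *Pold1*, *Tk1* and *Pole* were higher. Of the 41 genes, 18 were lower and 3 higher (43.9% and 7.32%), against 14.3% lower and 13.7% higher among the 15278 genes tested. The median log2FC was -0.10, and 0.01 over all genes. The median SE was 0.055 for the 41 genes and 0.089 for all genes.

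The largest differences were those of *Cdt1* (log2FC -0.55 ± 0.07, adjusted p = 5.15e-06), *Ccne1* (log2FC -0.50 ± 0.06, adjusted p = 5.36e-06), *Chaf1b* (log2FC -0.46 ± 0.05, adjusted p = 5.90e-07), *Pold1* (log2FC 0.40 ± 0.06, adjusted p = 3.82e-05) and *Orc1* (log2FC -0.31 ± 0.10, adjusted p = 0.0165). The 3 h cultures and 8 h cultures did not overlap in any of these 5. *Ccne1* was at 41.3, 40.5 and 39.8 CPM at 8 h and *Orc1* at 13.5, 15.3 and 15.1 CPM, which overlapped vehicle in *Orc1* and lay just above it in *Ccne1*. *Tk1*, at 73.7, 69.8 and 72.4 CPM at 8 h, was above its 3 h level (log2FC 0.29 ± 0.06, adjusted p = 0.000602), as was *Pole* (0.19). The licensing gene not called was *Mcm2* (log2FC -0.05, 95% interval -0.15 to 0.05). *Ccne2* spread widely at 8 h, at 75.3, 94.4 and 98.7 CPM, and its call was near the threshold (adjusted p = 0.0458). That call was lost with upper-quartile or total count scaling, without any 1 of the 3 h cultures and without 8 h replicate 1. Without 8 h replicate 1, *Ccne2* was called higher than vehicle at 8 h.

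The comparison shares its 3 h cultures with that of 3 h against vehicle, so the values are only set side by side. Against the same vehicle cultures, the 13 genes called higher at 3 h had log2FC from 0.11 to 0.70 at 3 h and from -0.07 to 0.14 at 8 h. *Gins4*, with -0.18 and -0.21, was not called between the times (adjusted p = 0.787). Of the 21 calls between the times, 13 stood in all 13 alternative settings, among them those of *Cdt1*, *Ccne1*, *Chaf1b*, *Cdc6*, *Rrm2*, *Pold1* and *Tk1*. That of *Orc1* was lost without 3 h replicate 2 and without 8 h replicate 1.

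**Figure D4:**
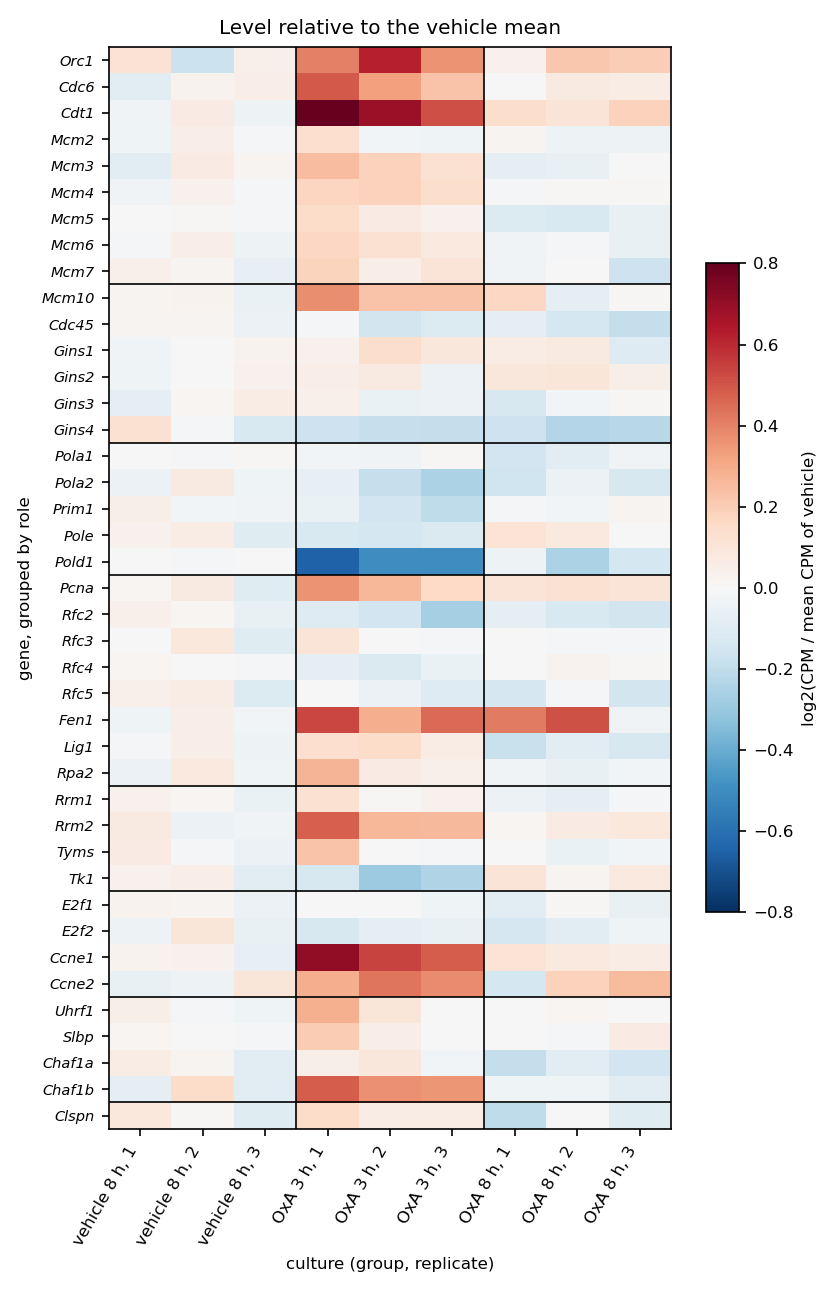
Level of each of the 41 genes (vertical, parted by role) in each of the 9 cultures (horizontal) as log2 of its CPM over the vehicle mean, red above and blue below, with the color scale from -0.8 to 0.8. *Cdt1*, *Ccne1* and *Orc1* are red in the 3 h cultures and *Pold1* is blue.

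A further 70 genes of replication and its control were read in the same fits. At 3 h 19 rose and 10 fell (27.1% and 14.3%, against 20.2% and 18.7% of all genes), and at 8 h 11 rose and 6 fell (15.7% and 8.57%, against 15.3% and 13.1%), with medians of 0.03 at both times. The balance turned with the scaling, as it did over all genes. Total counts gave 11 higher and 16 lower at 3 h and 5 and 18 at 8 h. Over all genes total counts gave 2141 higher and 4333 lower at 3 h, and 1744 and 3067 at 8 h. The upper quartile gave 14 and 16 of the 70 at 3 h, against 2426 and 3719 of all genes. At 8 h it gave 8 and 10 of the 70, against 1994 and 2515 of all genes. *E2f3*, an activator E2F, rose at 3 h (log2FC 0.54 ± 0.07) and *Top1*, which relaxes DNA ahead of the fork, did as well (0.51). The further E2F genes of the 70 are given as mean CPM in vehicle and at 3 h. *E2f4* was at 31.4 and 42.5, *E2f6* at 56.0 and 71.0, *E2f7* at 78.1 and 95.8 and *E2f8* at 47.4 and 61.4. *E2f5* was at 12.7 and 12.9. *Rbl2*, the retinoblastoma family member p130, fell at 3 h (-0.41) and at 8 h (-0.44). *Dctd*, the deoxycytidylate deaminase that feeds thymidylate synthesis, was higher at 8 h (1.06). Between the times 10 of the 70 were higher at 8 h and 13 lower (14.3% and 18.6%, against 13.7% and 14.3% of all genes).

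The 70 hold the remaining subunits of the origin recognition complex and of the replicative polymerases, named here with their values already known. Of 5 ORC subunits, *Orc6* (0.32) and *Orc2* (0.23) rose at 3 h on the log2 scale, also by DESeq2, under each scaling and without any 1 culture. *Orc3* (log2FC -0.12, 95% interval -0.25 to 0.01), *Orc4* (log2FC -0.14, 95% interval -0.27 to -0.01) and *Orc5* (log2FC -0.16, 95% interval -0.32 to 0.01) were not called, but with upper-quartile or total count scaling all of these were called lower. Between the times *Orc5* (0.30) and *Orc4* (0.26) were higher at 8 h and *Orc6* (-0.16) lower, the last not under upper-quartile or total count scaling or without replicate 1 or 2 of either group. The call of *Orc4* was lost without 3 h replicate 2 and without 8 h replicate 3. Of 7 polymerase and primase subunits, *Pole3*, a histone-fold subunit of polymerase epsilon, was called higher at 3 h (log2FC 0.13 ± 0.05, adjusted p = 0.0428), a call lost by DESeq2, with either of those scalings and without any 1 of the 6 cultures. The others were not called: *Pold2* (0.12), *Pold3* (0.11), *Pole4* (0.09) and *Prim2* (0.08) had a log2FC above 0, and *Pole2* (-0.06) and *Pold4* (-0.18) below it.

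Genes of mitosis and of CDK inhibition were counted as well. Of 26 G2/M genes, 0 rose and 13 fell at 3 h (50% lower, against 18.7% of all genes), and 0 rose and 12 fell at 8 h (46.2%, against 13.1%). The median SE of the 26 was 0.049 at 3 h and 0.048 at 8 h, against 0.090 and 0.089 for all genes. With total counts as the only scaling 23 fell at 3 h and 18 at 8 h, while 4333 and 3067 of all genes were lower. Without vehicle replicate 1 or without 8 h replicate 2, 7 fell at 8 h. At an unadjusted p under 0.05, and by DESeq2, 0 were higher at either time. *Bub1b*, of the spindle checkpoint (-0.50 at 3 h), and *Kif20a*, a mitotic kinesin (-0.45), had the largest falls. Of 12 genes of D-type cyclins, CDK inhibitors and the kinases *Cdk4* and *Cdk6*, 9 passed the filter. At each time 1 of them rose and 3 fell (11.1% and 33.3%). Over all genes 20.2% rose and 18.7% fell at 3 h, and 15.3% and 13.1% at 8 h. Among the genes called in this list, *Cdkn1a*, which encodes the inhibitor p21, rose at 3 h (0.98) and at 8 h (0.66). *Cdkn1b*, which encodes p27, fell (-0.38 and -0.23). *Gnrh1*, whose promoter type drives the T antigen, was not called at 3 h (log2FC 0.06, 95% interval -0.04 to 0.16) and fell at 8 h (-0.35). The T antigen transcript was not analysed here.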

How the data were processed

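Ribosomal RNA was depleted from the total RNA of 9 cultures, and strand-specific libraries (TruSeq) were sequenced by the study. Its methods and labels give trimming with Trimmomatic, alignment to mm10 with STAR (2.5.2a), counting per gene with HTSeq (0.6.0) and DESeq2 (1.10.1); the annotation and the strand setting are not given in the sources used here. The authors deposited raw counts per gene, on which every test rests, and TPM (counts per transcript length, summing to a fixed total), used for levels only. Their DESeq2-normalized counts and comparison tables, which hold fold changes and p-values, were not used. The files held no column of an unmapped sample.

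Genes were kept with filterByExpr, scaled by TMM and tested with edgeR 4.0.16 (glmQLFTest, robust, R 4.3.3) between the 2 groups of each comparison, with Benjamini-Hochberg adjustment over all genes kept. The threshold for a call was an adjusted p under 0.05. All 41 genes passed the filter in each comparison. CPM are TMM-scaled over the 9 libraries. Alternatives were DESeq2 1.42.0, other scalings, no filter, 1 fit of all 9 samples, a replicate block and leaving out each culture. Positions and exon overlaps came from GENCODE M21 (GRCm38) and promoters from RefSeq (GRCm38.p6). The genes and lists were chosen with earlier results of these data known. Genes named with values per culture are, against vehicle, the 8 strongest calls upward and 5 strongest downward, from every role the highest in TPM and the most changed, and the 5 with the largest difference between the times; of each other list, up to 4 with the largest change. Other genes are given by their log2FC or interval, and the further E2F genes, named after the data were seen, by their mean CPM. *Orc2* and *Orc6* are given by both log2FC and mean CPM. The remaining ORC and polymerase subunits were named, and their counts and those of G2/M genes recomputed under the alternatives, after the data were seen.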

Additional observations from a re-analysis of the deposited data

Results flagged for a closer look

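For 21 of the 41 genes the level at 8 h differed from that at 3 h in the direct test of the 2 OxA groups (edgeR's quasi-likelihood test, adjusted p under 0.05). The values here are log2 fold changes of 8 h against 3 h, so a negative value is a lower level at 8 h. Among licensing genes they were -0.55 for *Cdt1*, -0.31 for *Orc1*, -0.31 for *Cdc6* and -0.23 for *Mcm3*. The other MCM2-7 genes called were *Mcm5* at -0.18, *Mcm7* at -0.18, *Mcm4* at -0.17 and *Mcm6* at -0.16. The cyclin E genes were at -0.50 (*Ccne1*) and -0.26 (*Ccne2*), and the CAF-1 genes at -0.46 (*Chaf1b*) and -0.19 (*Chaf1a*). On the fork, *Lig1* was at -0.25, *Mcm10* at -0.24, *Clspn* at -0.19, *Rpa2* at -0.17 and *Pcna* at -0.16, and *Rrm2*, of nucleotide supply, was at -0.28. The 3 genes higher at 8 h were *Pold1* at 0.40, *Tk1* at 0.29 and *Pole* at 0.19. Each gene was measured in 3 cultures per group, and time since the medium change differed with the groups.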

How the results depend on the processing

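Of the values for single genes, 569 kept their call or lack of one, 52 lost a call and 16 gained one, and no called value changed sign. By DESeq2, 3 of the 41 genes fell at 3 h, and at 8 h 0 rose and 2 fell (2 and 6 at an unadjusted p under 0.05), with 3 of the 70 other replication genes lower. With upper-quartile scaling the median log2FC of the 41 genes at 3 h was 0.027, with 16 of the 70 lower, and at 8 h 0 of the 41 rose and 8 fell, with 10 of the 70 lower. With total counts as the only scaling the 3 h median was -0.0063, 11 of the 41 fell, 11 of the 70 rose and 16 fell, and 4333 of all genes were lower. The split of all 3 h calls was 52% higher with TMM, 39.5% with the upper quartile and 33.1% with total counts. At 8 h total counts gave a median of -0.089, 0 of the 41 higher and 12 lower, 5 of the 70 higher and 18 lower, and 3067 of all genes lower. The medians of the 41 genes less those of all genes were 0.09 at 3 h under each of these scalings. A scaling shifts both medians nearly alike, so this could hardly differ and is no check. Leaving out cultures could move it: it was 0.046 without 3 h replicate 1, 0.062 without vehicle replicate 3 and 0.109 without 3 h replicate 3. In 1 fit of all 9 samples 0 of the 41 rose at 8 h (2 at an unadjusted p under 0.05). Against promoters of genes kept, the share with an E2F word was 3.80%.

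The sample titles give replicates the same numbers in each group, but the sources do not say which run a number stands for. For this reason, and since correlations of same-numbered deviations were low, the numbers were not taken to pair the samples in the main tests. These correlations, all above 0, were 0.01 to 0.13 for 3 h and vehicle, 0.08 to 0.16 for 8 h and vehicle, and 0.03 to 0.21 between the times. As a hint from the data, each culture correlated best with its own number for 8 h and vehicle, but not in the other comparisons. With the replicate number as a block, 16 of the 41 rose and 7 fell at 3 h, 2 rose and 9 fell at 8 h, and 4 were higher and 20 lower between the times, with 20 of the 70 higher and 10 lower at 8 h.

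Leaving out 1 culture at a time, 2 to 8 of the 41 fell at 3 h, with a median from 0.032 to 0.096. At 8 h 0 to 2 rose and 0 to 6 fell, and of the 70, 6 to 13 rose and 3 to 6 fell. Between the times the median was -0.148 to -0.072, and of the 70, 5 to 10 were higher and 7 to 12 lower. The median SE of the 41 genes was 0.05 on the log2 scale at 8 h, and that of all genes 0.09. The smallest change called at 8 h was that of *Lig1* (log2FC -0.13). Genes not called, *Fen1* left out, had log2FC from -0.12 to 0.14. Differences of such sizes could thus be missed at this depth with 3 cultures per group.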
